A study of Danio rerio with 3 samples.

Results

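The genes described here are 35 cell cycle genes of the zebrafish, 16 that work in S phase (pcna, mcm2 to mcm7, rrm1, rrm2, tyms, gins2, uhrf1, dut, fen1, slbp and rpa2) and 19 that work in G2 and mitosis (G2/M: top2a, cdk1, ccnb1, ccna2, cdc20, tpx2, kpna2, cdca8, mad2l1, mki67, aurkb, aurka, plk1, bub1, cenpf, ube2c, birc5a, nusap1 and kif11). They were chosen by symbol from a list of 32520 genes, in which all 35 were found, and the measured values had no part in the choice. rrm2 and ube2c each name a pair of gene identifiers, which were summed, so that the 35 symbols stand for 37 identifiers. They were followed in single cells of the heart ventricles of 6-month-old EK zebrafish that carry tcf21:nucEGFP, a transgene in which the regulatory sequences of the epicardial transcription factor gene tcf21 drive a nuclear green fluorescent protein. Live nucEGFP+ cells were sorted from uninjured fish that received no treatment (Ctrl) and from fish at 3 and 7 days after partial ventricular amputation (3 dpa and 7 dpa), and each condition gave 1 library of 10x Genomics 3′ v3 single-cell RNA-seq. Because there is 1 library per condition, a difference between conditions cannot be told apart from a difference between fish, dissociations or libraries, no p-value is given, and the intervals below (95%) cover counting error only. The number of hearts behind a library is not given in the sources used here.

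A dividing cell copies its genome once, in S phase, and hands 1 copy to each daughter in mitosis. S phase needs a helicase that opens the origins of replication, a clamp that holds the polymerases on DNA, and enzymes that supply nucleotides, whereas G2 and mitosis need the cyclin-dependent kinase that starts mitosis, a spindle, kinetochores that attach chromosomes to it, and a ubiquitin ligase that destroys cyclins and securin at anaphase. Transcripts of the G2/M genes build up late in the cycle and are nearly lost from cells that have left it, while several S phase proteins also repair DNA and are made at a low level in resting cells. The epicardium, the outer layer of the heart, is known to be largely quiescent in the uninjured adult zebrafish heart and to proliferate after injury.

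Of 5284, 4390 and 7002 droplets in the Ctrl, 3 dpa and 7 dpa libraries, 5098, 3905 and 6624 passed the study's limits on genes and mitochondrial transcripts, more in each library than the number of cells that the study states after its quality control. The median number of transcripts counted per cell (UMIs, unique molecular identifiers) was 4311.5 in Ctrl cells, 9623 in 3 dpa cells and 5435.5 in 7 dpa cells, so that the chance to find a given transcript in a cell was larger at 3 dpa. Therefore shares of cells were also taken after each cell had been thinned at random to 1800 UMIs, which left 4615, 3698 and 6187 cells. The libraries share 7 (Ctrl and 3 dpa), 12 (Ctrl and 7 dpa) and 6 (3 dpa and 7 dpa) cell barcodes. Cells were clustered without the members and every other cell cycle gene on the lists used here. The clusters were named by their markers as mesenchymal-like, epithelial-like and aEPC-like epicardial cells (aEPC, activated epicardial progenitor cell), mural-like, immune-like, cardiomyocyte-like and endothelial-like cells. 11 of 12 aEPC markers were raised in the aEPC-like cluster, all 14 epithelial markers in the epithelial-like cluster and 14 of 14 mural markers in the mural-like cluster, but the 4 clusters called mesenchymal-like had 9, 8, 4 and 4 of 16 markers raised. The endothelial-like cluster, with all 12 endothelial markers, also had 14 of 14 mural markers raised. Among the 10 genes that led the aEPC-like cluster, kpna2, cdc20, mki67, top2a, ube2c and cdk1 are G2/M members. None of these members was used to form the cluster. zgc:194627, also among the 10, is on no list but followed the G2/M sum across 3 dpa epicardial cells (Pearson correlation 0.449). The part of such unlisted genes in forming the clusters was not tested.

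Both phases were highest at 3 dpa, and the G2/M genes differed far more between the libraries than the S genes. Summed over the 19 G2/M members, 168 UMIs were counted in Ctrl cells, 20710 in 3 dpa cells and 482 in 7 dpa cells. As levels, which here are always the UMIs of a gene or list per 10000 UMIs of the same cells, these were 0.0654 (0.0559–0.0761) for Ctrl, 4.04 (3.99–4.10) for 3 dpa and 0.107 (0.0980–0.117) for 7 dpa. The 16 S members had 2572, 29016 and 3298 UMIs, or levels of 1.002, 5.66 and 0.735. The 3 dpa library was thus 61.8-fold (53.1–72.3) above Ctrl in G2/M level and 5.65-fold (5.43–5.89) in S level. The 7 dpa library stood at 0.0266 (0.0242–0.0291) of the 3 dpa level for G2/M and at 0.130 (0.125–0.135) for S.

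How far the phases were apart depended on how cells were weighed. When every cell was thinned to 1800 UMIs, the ratio of 3 dpa to Ctrl was 42.4 for G2/M and 3.28 for S, and with the mean over cells it was 32.5 and 2.95. The Ctrl sum of G2/M UMIs rested on few cells, since a single mesenchymal-like cell held 71 of the 168 UMIs, spread over 16 of the 19 members and with no S member found in it. Without the cell richest in G2/M UMIs of each library the ratio of 3 dpa to Ctrl was 105. In the sums, the thinned cells and the means over cells the 3 dpa library was higher than Ctrl in both phases and by more in G2/M, whereas the richest cells were left out for G2/M only.

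The number of S UMIs found for each G2/M UMI differed in the same way. It was 15.3 in Ctrl, 1.40 in 3 dpa and 6.84 in 7 dpa cells. Of the 2572 S UMIs at Ctrl, 1000 were those of pcna.

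Shares of cells gave the same order. Among thinned cells, 2 of 4615 Ctrl cells (0.0433%), 207 of 3698 cells at 3 dpa (5.60%, exact Clopper-Pearson interval 4.88–6.39) and 6 of 6187 cells at 7 dpa (0.0970%) held UMIs of at least 2 different G2/M members. For S members the shares were 1.28%, 11.1% and 1.13%. Unthinned, the shares were 0.177%, 13.1% and 0.211% for G2/M and 6.28%, 27.6% and 5.09% for S. No thinned cardiomyocyte-like or endothelial-like cell of the 3 dpa library held 2 different G2/M members (0 of 30 and 0 of 13 cells). The upper limits of the intervals of these shares were 11.6% and 24.7%. Of the 30 cardiomyocyte-like cells, 1 (3.33%) held 2 different S members, as did 0 of the 13 endothelial-like cells. These classes had median depths of 5148.5 and 10095 UMIs, against 9623 in the whole library. With so few cells the background from free RNA is poorly bounded. The level of G2/M members in cardiomyocyte-like cells at 3 dpa was 0.293 (8 UMIs), against 4.04 in the library, and that of S members was 2.90 (79 UMIs), against 5.66. The S level of these cells was 6.02-fold (3.39–11.5) that at Ctrl (0.481, 14 UMIs), beside 5.65-fold in the library. The part of free RNA in the S levels was not tested.

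**Figure D1:**
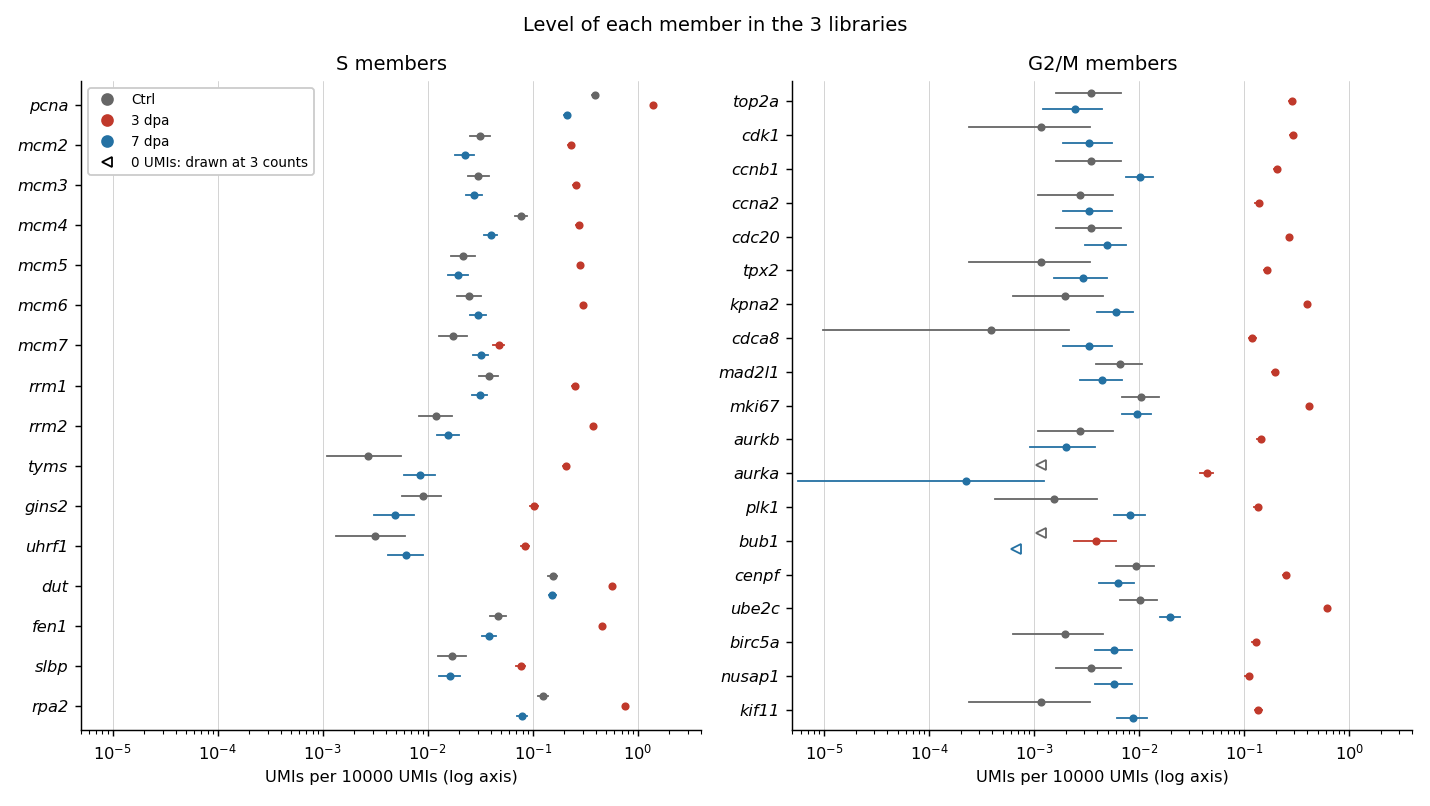
Level of each S member (left) and G2/M member (right) at Ctrl (grey), 3 dpa (red) and 7 dpa (blue), in UMIs per 10000 UMIs on a log axis, with exact Poisson 95% intervals as bars; an open triangle marks 0 UMIs and is drawn at the level of 3 counts. Every member is highest at 3 dpa, and the gap to Ctrl is narrowest for mcm7 (0.0474 against 0.0175).

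Among the S members, the ring-shaped helicase subunits mcm2 to mcm7, which open DNA at licensed origins, differed among themselves. mcm5 was counted 56 times at Ctrl, 1443 times at 3 dpa and 88 times at 7 dpa, or at levels of 0.0218, 0.282 and 0.0196. mcm6 had levels of 0.0249, 0.304 and 0.0301. Both were more than 10 times as high at 3 dpa as at Ctrl, with ratios of 12.9 (9.88–17.2) and 12.2 (9.49–15.9). The ratios of mcm2 (7.29), mcm3 (8.44) and mcm4 (3.52) were smaller, and mcm4 had levels of 0.0775, 0.273 and 0.0397. mcm7 stood apart from the other subunits, with 45, 243 and 143 UMIs and levels of 0.0175, 0.0474 and 0.0319. Its ratio of 3 dpa to Ctrl, 2.71 (1.96–3.81), was the lowest of all members, and at 7 dpa it was still 1.82-fold (1.29–2.60) above Ctrl. gins2, a subunit of the GINS complex that joins this helicase at the fork, had 23, 525 and 22 UMIs and an 11.4-fold ratio (7.54–18.2).

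The enzymes that supply deoxynucleotides included the members with the widest range. tyms (thymidylate synthase) was nearly absent at Ctrl, with 7 UMIs, and had 1053 at 3 dpa and 38 at 7 dpa, which gave levels of 0.00273, 0.205 and 0.00847 and a ratio of 3 dpa to Ctrl of 75.4 (36.5–188). rrm2, the regulatory small subunit of ribonucleotide reductase, had 31, 1931 and 70 UMIs and a ratio of 31.2 (21.9–46.1). rrm1, the large subunit of the same enzyme, had 98, 1283 and 140 UMIs and a ratio of only 6.56 (5.34–8.14). The intervals of the subunits of this enzyme do not meet, but they cover counting error only and not the spread between cells or fish. In mammalian cells the protein of the large subunit is known to be stable through the cycle while the small one is made in S phase. The ratios here are of RNA, and protein was not measured. dut, which removes dUTP from the pool of precursors, was found widely at rest, with levels of 0.155, 0.572 and 0.153 and a ratio of 3.70 (3.33–4.12).

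Of the factors that act at the fork, pcna (the sliding clamp) had 1000, 7092 and 943 UMIs and levels of 0.389, 1.38 and 0.210, with a ratio of 3 dpa to Ctrl of 3.55 (3.33–3.80). rpa2, which coats single-stranded DNA, had levels of 0.125, 0.763 and 0.0789 and a ratio of 6.10 (5.44–6.86). fen1, the nuclease that trims Okazaki fragments, had levels of 0.0467, 0.454 and 0.0385 and a ratio of 9.72 (8.08–11.8). The clamp, which also serves DNA repair, was found in 6.15% of thinned Ctrl cells, 9.79% of 3 dpa cells and 3.48% of 7 dpa cells. uhrf1, which guides DNA methylation onto newly made strands, had 8, 433 and 28 UMIs and a ratio of 27.1 (13.6–63.2). slbp, the binding protein of histone mRNA, had 44, 396 and 73 UMIs and a ratio of 4.51 (3.30–6.31).

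A member was counted as past the threshold when its ratio was at least 2 or at most 0.5, its interval left out 1 and it had at least 50 UMIs over the libraries compared. All 16 S members reached 50 UMIs and all 16 were higher at 3 dpa than at Ctrl, where 27.0% of the 13697 genes tested were higher and 10.9% lower. Their median ratio was 7.86, beside 1.29 for all genes tested. 10 of the 16 had 50 UMIs at Ctrl alone, so that they would have been tested in any case, while rrm2, tyms, gins2, uhrf1, slbp and mcm7 passed through their 3 dpa counts. Of the 19 G2/M members, 18 reached 50 UMIs and all 18 were higher at 3 dpa, with a median ratio of 63.4 when aurka is entered at its lower bound. None of them had 50 UMIs at Ctrl, so each was tested because it was high at 3 dpa, and their count is given as a description only.

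The kinase that starts mitosis and its cyclins were close to the limit of detection at Ctrl. cdk1 had 3 UMIs at Ctrl, 1479 at 3 dpa but only 15 at 7 dpa, or levels of 0.00117, 0.289 and 0.00334, and its ratio of 3 dpa to Ctrl was 247 (84.4–1199). ccnb1 (cyclin B1) had 9, 1053 and 46 UMIs, with a ratio of 58.6 (30.8–129). ccna2 (cyclin A2), which already acts in S phase, had 7, 705 and 15 UMIs, with a ratio of 50.5 (24.4–126). The intervals of the cyclins and of cdk1 overlap, since so few UMIs were counted at Ctrl.

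Genes of cyclin destruction followed. ube2c, the ubiquitin-conjugating enzyme of the anaphase-promoting complex, had 26, 3133 and 89 UMIs and levels of 0.0101, 0.611 and 0.0198, for a ratio of 60.4 (41.1–92.6). The counts of ube2c came from an unlike pair of identifiers, ENSDARG00000114670 with 13, 3121 and 75 UMIs and ENSDARG00000101618 with 13, 12 and 14 UMIs. Only ENSDARG00000114670 therefore carried the difference between the libraries. cdc20, which activates the same complex, had 9, 1379 and 22 UMIs and a ratio of 76.8 (40.3–168). mad2l1 and bub1 belong to the checkpoint that holds cdc20 back until chromosomes are attached. mad2l1 had 17, 1003 and 20 UMIs and a ratio of 29.6 (18.4–50.9), whereas bub1 was found with only 20 UMIs at 3 dpa and none in the other libraries, so that its 3 dpa level was at least 3.34-fold higher than Ctrl.

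The Aurora and Polo kinases and the chromosomal passengers were also near the limit of detection at Ctrl. aurka, which matures the spindle poles, had no UMI at Ctrl, 225 at 3 dpa but 1 at 7 dpa, so that it was at least 37.6-fold higher at 3 dpa than at Ctrl. plk1 had 4, 687 and 37 UMIs and a ratio of 86.0 (33.5–317). aurkb and its partners in the passenger complex, birc5a (survivin) and cdca8 (borealin), had 734, 662 and 612 UMIs at 3 dpa, against 7, 5 and 1 at Ctrl. Their ratios were 52.5 (25.4–131) for aurkb, 66.3 (28.3–205) for birc5a and 307 (54.8–12130) for cdca8, the last resting on 1 UMI at Ctrl.

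The remaining G2/M members build the spindle or shape the mitotic chromosome. kif11, the motor that pushes spindle poles apart, had 3, 698 and 39 UMIs and a ratio of 117 (39.7–567). tpx2, a spindle assembly factor and activator of Aurora A, had 3, 850 and 13 UMIs, and nusap1, which bundles spindle microtubules, had 9, 566 and 26. kpna2, an importin alpha, had 5, 2042 and 27 UMIs and a ratio of 205 (87.5–631). top2a, which untangles sister chromatids, had 9, 1451 and 11 UMIs and a ratio of 80.8 (42.4–177). mki67, which coats mitotic chromosomes and is the gene of the Ki-67 antigen, had 27, 2129 and 43 UMIs and a ratio of 39.5 (27.1–60.1). cenpf, a kinetochore protein, had the lowest ratio of the 18 tested members, 26.8 (17.9–41.9), from 24, 1282 and 28 UMIs. The lowest ratio among the tested G2/M members was thus above those of all S members except tyms, rrm2 and uhrf1. Since each G2/M member was tested only because it was high at 3 dpa, and bub1 was left out, this order is a description only.

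**Figure D2:**
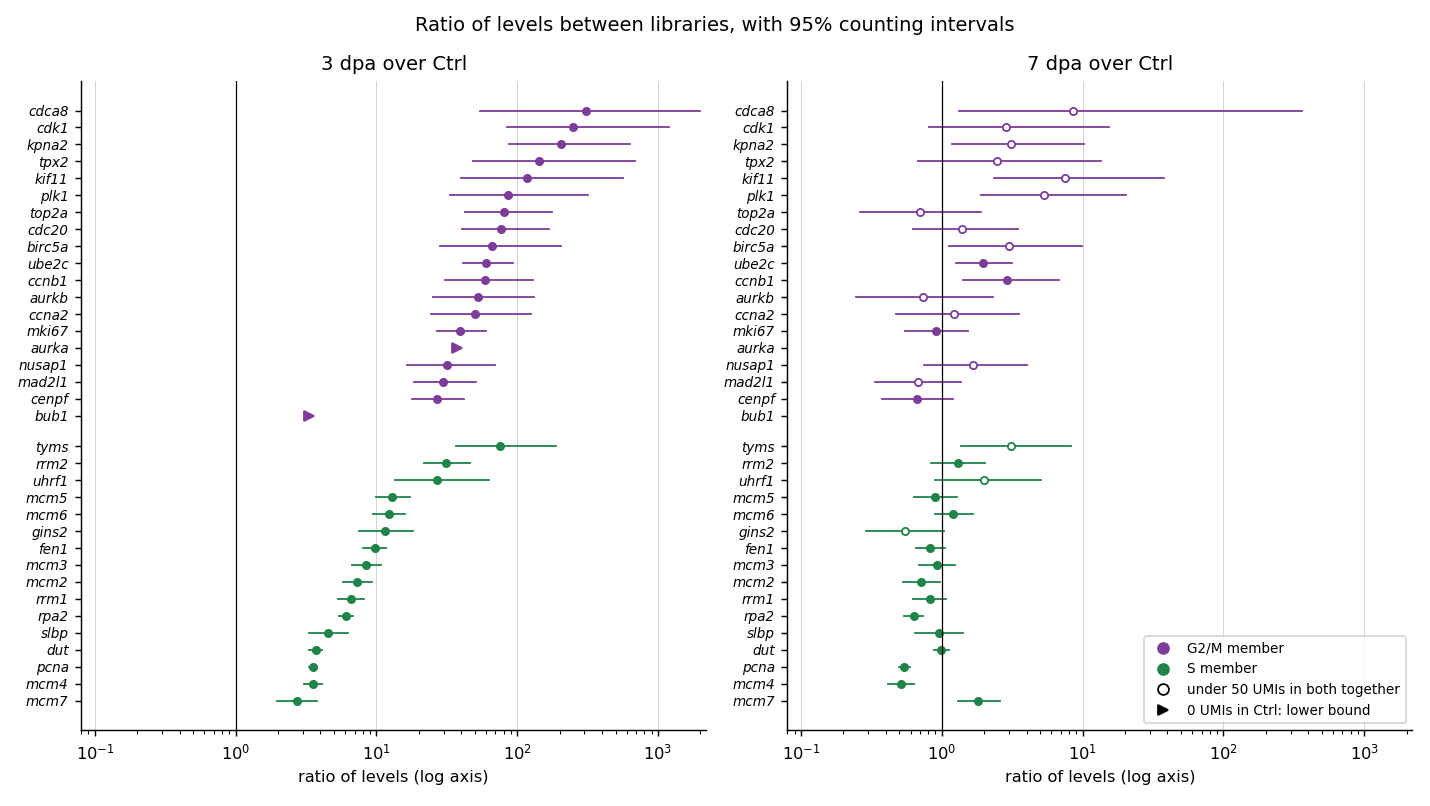
Ratio of levels at 3 dpa over Ctrl (left) and 7 dpa over Ctrl (right) for each G2/M member (purple) and S member (green), on a log axis with 95% counting intervals cut at the ends of the axis; open circles have under 50 UMIs over both libraries, a filled triangle is a lower bound against 0 UMIs, and aurka and bub1 have no ratio at 7 dpa. At 3 dpa all S members lie between 2.71 and 75.4, and at 7 dpa most intervals of both phases cross 1.

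At 7 dpa all 35 members were lower than at 3 dpa, and they stood on both sides of their Ctrl levels. Set against 3 dpa, 15 of 16 S members and 18 of 18 tested G2/M members were lower at 7 dpa, where 18.5% of the 14136 genes tested were lower and 7.03% higher. Of these 18 G2/M members, ube2c alone had 50 UMIs at 7 dpa, so that the others were tested because they were high at 3 dpa and their count is a description only. Of the S members, tyms, gins2 and uhrf1 also had fewer than 50 UMIs at 7 dpa and were tested through 3 dpa. The median ratio of 7 dpa to 3 dpa was 0.101 for S and 0.0237 for G2/M, beside 0.867 for all genes tested. The exception was mcm7 at 0.672 (0.543–0.830). The smallest ratios of 7 dpa to 3 dpa in G2/M were those of aurka (0.00508) and top2a (0.00866), and the largest were those of plk1 (0.0615) and kif11 (0.0638). The thinned S level at 7 dpa was 0.239 of that at 3 dpa and the ratio of means over cells was 0.249, against 0.130 in the sums. For G2/M, the same ratio was 0.0465 in thinned cells and 0.0432 for means over cells.

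Set against Ctrl, the 7 dpa library was lower in S level, at 0.734 (0.697–0.773), and higher in G2/M level, at 1.64 (1.37–1.97). Both of these comparisons use the same Ctrl library as those of 3 dpa. None of the 13 S members tested was past the threshold, and 1 of the 4 tested G2/M members was, beside 7.37% of the 13074 genes tested that were higher and 4.92% that were lower. That member was ccnb1, at 2.92 (1.41–6.80). pcna (0.540, interval 0.493–0.590), mcm4 (0.512, 0.416–0.630), rpa2 (0.631) and mcm2 (0.713) had intervals below 1 without reaching 0.5, whereas dut (0.990), slbp (0.949) and mcm3 (0.917) had intervals that included 1. Of all 19 G2/M members, 7 had intervals above 1 and none had one below it, with neither threshold nor minimum applied. The share of all genes with such intervals was not taken, so this count is a description only. 15 of the 19 were under the minimum of UMIs. These included kif11 at 7.44 (2.36–37.6, from 39 UMIs at 7 dpa and 3 at Ctrl) and plk1 at 5.29 (1.90–20.4, from 37 and 4). tyms, also under the minimum, stood at 3.11 (1.37–8.24, from 38 and 7). Most G2/M UMIs of the 7 dpa library came from 4 cells with at least 10 different G2/M members, which held 280 of its 482 G2/M UMIs. Without such cells the ratio of 7 dpa to Ctrl was 1.19 (0.932–1.54).

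Among the epicardial classes of the 3 dpa library, both phases were highest in aEPC-like cells. These were found as 460 cells at 3 dpa, 23 at 7 dpa and 1 at Ctrl. At 3 dpa the summed G2/M level was 9.21 in aEPC-like, 3.43 in epithelial-like and 0.773 in mesenchymal-like cells. The S level was 12.0, 4.13 and 2.10 in the same order. aEPC-like cells were 11.8% of the 3 dpa cells and held 27.2% of its UMIs, yet 62.0% of its G2/M UMIs and 57.5% of its S UMIs. Mesenchymal-like cells were 54.0% of the cells and held 7.12% of the G2/M and 13.8% of the S UMIs.

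Since aEPC-like cells also had the most UMIs per cell (a median of 29337, against 13924 in epithelial-like and 6810 in mesenchymal-like cells of that library), the shares were compared after thinning. At least 2 different G2/M members were found in 105 of 458 aEPC-like cells (22.9%), 71 of 1027 epithelial-like cells (6.91%) and 21 of 1985 mesenchymal-like cells (1.06%). For S members the shares were 41.3%, 11.5% and 3.68%. Without thinning the G2/M shares were 59.3%, 15.5% and 2.37%. Between classes, the G2/M level of aEPC-like cells was 2.69-fold (2.60–2.77) that of epithelial-like cells and 11.9-fold (11.3–12.6) that of mesenchymal-like cells, and epithelial-like cells were 4.43-fold (4.19–4.70) above mesenchymal-like cells. The S level differed by 2.89-, 5.70- and 1.97-fold for the same pairs. That was less than in G2/M against mesenchymal-like cells, but slightly more between aEPC-like and epithelial-like cells.

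The fold against mesenchymal-like cells depended on where the edges of the clusters fell. With log-normalized values in place of SCTransform the G2/M ratios of aEPC-like and epithelial-like to mesenchymal-like cells were 130 and 35.7, with the cell cycle genes left among the variable genes 48.0 and 14.8, and the S ratios were 17.4 and 3.72 with log-normalized values. The log-normalized clusters included 1 of 1872 cells, 1253 of them from 3 dpa, which took no name, so that these cells are in none of the classes of that setting. In thinned cells the G2/M ratios were 19.01 and 6.71. At a coarser clustering (resolution 0.2) no aEPC-like cluster was found, and the ratios of epithelial-like to mesenchymal-like cells were 7.47 for G2/M and 3.79 for S. In all these settings the order of the classes found was the same. The 4 mesenchymal-like clusters also differed among themselves at 3 dpa, with G2/M levels of 0.345, 1.02, 0.242 and 6.22, the last from 83 cells of a cluster with a median of 2268 UMIs.

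**Figure D3:**
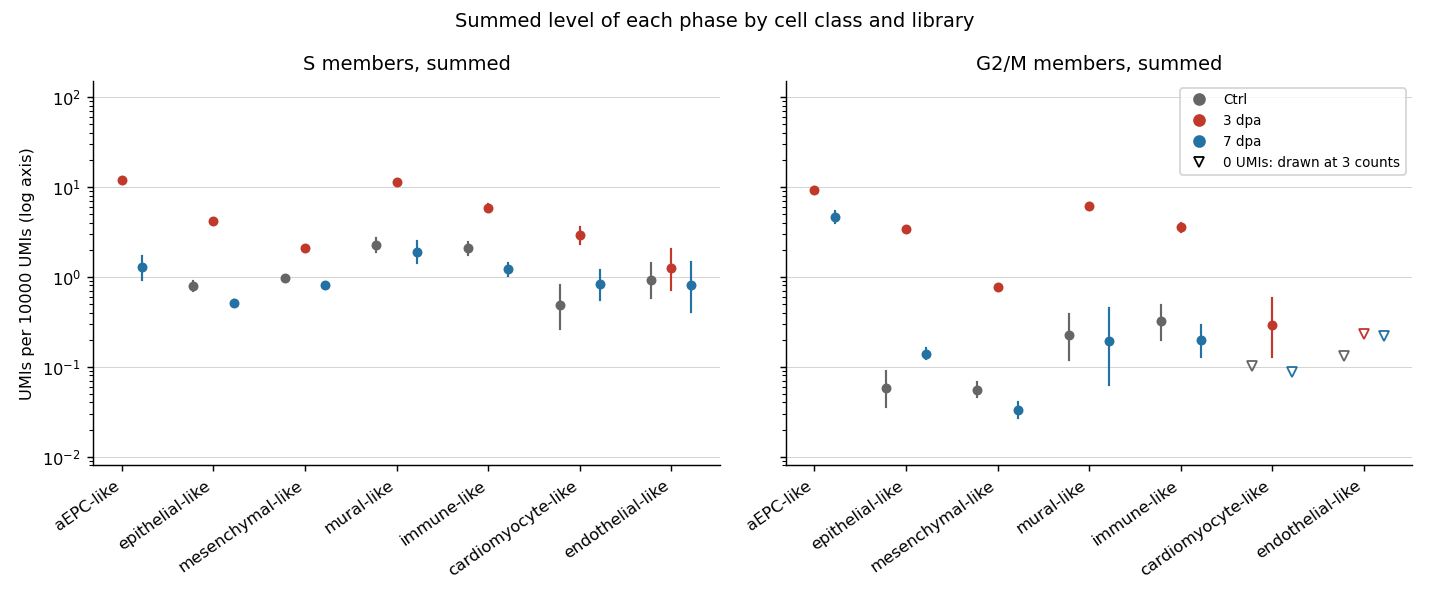
Summed level of the S members (left) and G2/M members (right) in each cell class at Ctrl (grey), 3 dpa (red) and 7 dpa (blue), in UMIs per 10000 UMIs on a log axis with exact Poisson 95% intervals; an open triangle marks 0 UMIs and is drawn at the level of 3 counts, and the single aEPC-like cell of Ctrl is not drawn. At 3 dpa the G2/M level is 9.21 in aEPC-like, 3.43 in epithelial-like, 0.773 in mesenchymal-like and 6.08 in mural-like cells. In the mural-like class 5 cells held 516 of the 595 G2/M UMIs at 3 dpa.

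Most single members followed the order of the sums. All 16 S members were higher in aEPC-like than in epithelial-like cells of the 3 dpa library, from mcm6 (2.17-fold) to fen1 (4.47-fold), as were 17 of 18 tested G2/M members, from kif11 (2.02-fold) to aurka (5.22-fold), where 15.4% of 11214 genes were higher and 9.50% lower. The 18th, cenpf, had a ratio of 1.88. Against mesenchymal-like cells, all 16 S members (mcm7 3.05-fold to slbp 7.68-fold) and all 18 tested G2/M members (top2a 9.15-fold to cdc20 20.9-fold) were higher in aEPC-like cells, beside 28.2% of 11304 genes that were higher and 11.4% that were lower. pcna, for example, had levels of 2.95 in aEPC-like, 0.934 in epithelial-like and 0.547 in mesenchymal-like cells, and mki67 had 0.953, 0.319 and 0.0844. Members with few UMIs in the class compared were tested through their aEPC-like counts, so these counts of members are descriptions. One was aurka, with 73.3% of its 225 UMIs at 3 dpa in aEPC-like, 16.0% in epithelial-like and 4.89% in mesenchymal-like cells.

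Epithelial-like cells exceeded mesenchymal-like cells in the 17 G2/M members tested but in only 10 of the 16 S members, beside 13.4% of 11390 genes that were higher and 8.65% that were lower. The median ratio was 4.04 for G2/M and 2.07 for S, against 1.22 for all genes tested. The largest of these ratios were those of cdc20 at 8.60, ccnb1 at 7.63, kif11 at 6.44 and birc5a at 6.37. The lowest in G2/M was that of aurkb, at 2.67. In S the ratios lay between 0.880 for mcm7 and 2.84 for slbp. Because the aEPC-like class was formed from the same cells, these folds are descriptions. Members with few UMIs in mesenchymal-like cells, such as birc5a, were tested through their epithelial-like counts, so the counts of members are descriptions too.

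Mural-like and immune-like cells of the 3 dpa library also held both phases. In mural-like cells the G2/M level was 6.08 (595 UMIs in 108 cells) and the S level 11.3, and in immune-like cells they were 3.54 and 5.86. mki67 had a level of 0.705 in mural-like and 0.616 in immune-like cells, and cdc20 had 0.123 and 0.0909, against 0.319 (mki67) and 0.261 (cdc20) in epithelial-like cells. In thinned cells the G2/M level was 2.18 in mural-like, 2.10 in immune-like and 2.87 in epithelial-like cells. At least 2 different G2/M members were found in 5 of 74 thinned mural-like (6.76%) and 5 of 111 immune-like cells, against 6.91% of epithelial-like cells. At least 2 different S members were found in 20 of 74 mural-like (27.0%) and 11 of 111 immune-like cells (9.91%), against 11.5% of epithelial-like cells.

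The time course was then read within classes, which the shift in the number of cells of each class does not enter. Shifts among the clusters pooled as mesenchymal-like, which differed in G2/M level at 3 dpa, can still enter, and their part was not tested. The edges of the classes can enter too. With cell cycle genes kept in the clustering, 896 cells of 3 dpa were epithelial-like and 646 aEPC-like, against 1045 and 460. Folds of 3 dpa to Ctrl within the classes of other clusterings are not given here. In epithelial-like cells the G2/M level was 0.0581 at Ctrl (20 UMIs), 3.43 at 3 dpa but 0.139 at 7 dpa, and in mesenchymal-like cells it was 0.0557, 0.773 and 0.0331. The 3 dpa level was 59.0-fold (38.2–96.7) above Ctrl in epithelial-like and 13.9-fold (11.5–17.0) in mesenchymal-like cells. These folds depended on few cells, since 1 mesenchymal-like Ctrl cell held 71 of the 114 G2/M UMIs of its class. Without cells that held at least 10 different G2/M members, the 3 dpa and Ctrl levels were 0.602 and 0.0581 in epithelial-like cells. In mesenchymal-like cells they were then 0.186 and 0.0210. Mural-like cells showed a ratio of 3 dpa to Ctrl of 27.3 (15.8–51.6) and immune-like cells one of 11.1 (7.15–18.2). At 3 dpa 5 mural-like cells held 516 of the 595 G2/M UMIs and 5 immune-like cells held 298 of 350. At Ctrl 1 mural-like cell, among those with the highest doublet scores, held 10 of the 13 UMIs. In S level the ratios of 3 dpa to Ctrl were 5.25 (4.65–5.95) in epithelial-like, 2.15 (2.04–2.27) in mesenchymal-like, 5.03 in mural-like and 2.84 in immune-like cells. No replicate library allows a test of whether these folds differ between classes.

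Member by member, 14 of 16 S and 17 of 17 tested G2/M members were higher at 3 dpa than at Ctrl in epithelial-like cells, where 24.9% of 9966 genes were higher and 7.53% lower. The S members that were not were mcm7, with a ratio of 0.988 (0.473–2.31), and mcm4, with 1.61. In mesenchymal-like cells 11 of 16 S and 14 of 14 tested G2/M members were higher, beside 16.2% of 11245 genes that were higher and 8.66% that were lower. In neither class did a G2/M member reach the minimum of UMIs over Ctrl and 7 dpa together. Each tested G2/M member was thus tested because it was high at 3 dpa, and their counts are descriptions only. At least 10 S members in epithelial-like and 3 in mesenchymal-like cells were also tested through their 3 dpa counts. In mesenchymal-like cells, dut (1.24), slbp (1.33) and pcna (1.39) were near their Ctrl levels. However, tyms, with 121 UMIs at 3 dpa and 2 at Ctrl, had a ratio of 64.9 (17.6–542) there. pcna thus had 3 dpa levels of 0.934 in epithelial-like and 0.547 in mesenchymal-like cells, and Ctrl levels of 0.230 and 0.394.

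Set against 3 dpa within classes, 15 of 16 S and 17 of 17 tested G2/M members were lower at 7 dpa in epithelial-like cells (16.7% of 11010 genes were lower and 4.57% higher), and 13 of 16 S and 15 of 15 tested G2/M members in mesenchymal-like cells (8.26% of 11708 genes were lower and 4.58% higher). mcm7 was the exception in epithelial-like cells, at 1.73. dut, at 0.979, had in mesenchymal-like cells a level of 0.197 at 7 dpa and 0.201 at 3 dpa. In both classes every tested G2/M member reached the minimum of UMIs only through 3 dpa, where it was high. The counts of G2/M members that were lower at 7 dpa are therefore descriptions only. At least 10 S members in epithelial-like and 3 in mesenchymal-like cells were likewise tested through 3 dpa. Set against Ctrl, mcm4 alone of 6 tested S members was past the threshold in epithelial-like cells, at 0.293 (4.05% of 9204 genes were lower and 7.86% higher), and none of 13 in mesenchymal-like cells (2.64% of 11512 genes were lower and 5.92% higher). The G2/M level at 7 dpa was 2.40-fold (1.51–4.01) that of Ctrl in epithelial-like cells and 0.595 (0.447–0.790) in mesenchymal-like cells. These opposite directions rested on 3 cells, since without cells that held at least 10 different G2/M members the ratios were 0.921 (0.558–1.59) and 1.58 (1.09–2.32).

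G2/M UMIs were concentrated in few cells. At 3 dpa, 3062 of 3905 cells (78.4%) held no G2/M UMI, while 191 cells (4.89%) held at least 10 different G2/M members and 85.9% of the G2/M UMIs. Of these, 111 were aEPC-like (24.1% of that class), 56 epithelial-like (5.36%), 14 mesenchymal-like (0.664%), 5 mural-like and 5 immune-like. At Ctrl 1 cell and at 7 dpa 4 cells had as many members, and 5027 of 5098 Ctrl cells had none. 9 of the 191 cells were among the cells with the highest doublet scores. Without the 191 cells the G2/M level of the 3 dpa library was 0.645 (0.622–0.669), against 0.0378 at Ctrl without its 1 such cell.

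S members were spread more widely. In cells with no G2/M UMI at all, the S level was 0.965 for Ctrl, 1.34 for 3 dpa and 0.669 for 7 dpa. In such cells of the 3 dpa library it was 3.89 in aEPC-like, 1.21 in epithelial-like and 0.853 in mesenchymal-like cells. Mesenchymal-like cells with no G2/M UMI had at Ctrl an S level of 0.966, above that at 3 dpa, and epithelial-like cells had 0.758. The difference in S level between 3 dpa and Ctrl was therefore smaller outside the cells with G2/M transcripts, although a cell with no G2/M UMI can also be one sampled too thinly.

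When S and G2/M members were sought in the same thinned cells of the 3 dpa library, 123 of 3698 cells (3.33%) held at least 2 different members of both, 289 (7.82%) of S alone and 84 (2.27%) of G2/M alone. In aEPC-like cells the shares were 14.2%, 27.1% and 8.73% of 458 cells, in epithelial-like cells 3.51%, 7.98% and 3.41% of 1027 cells, and in mesenchymal-like cells 0.655%, 3.02% and 0.403% of 1985 cells. At Ctrl 1, 58 and 1 of 4615 cells fell into these groups, and at 7 dpa 1, 69 and 5 of 6187. Over all classes, the groups with either phase came from deep cells, with unthinned medians of 27855 UMIs (both), 26285 (S alone) and 23720 (G2/M alone), against 9248.5 where neither was found. Within aEPC-like cells these medians were 34837, 33318 and 26950, against 27132. They were 15010, 19570 and 17366 against 13678 in epithelial-like cells, and 19680, 15688 and 13605 against 6998.5 in mesenchymal-like cells. No phase of the cycle was assigned to a cell from these counts.

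**Figure D4:**
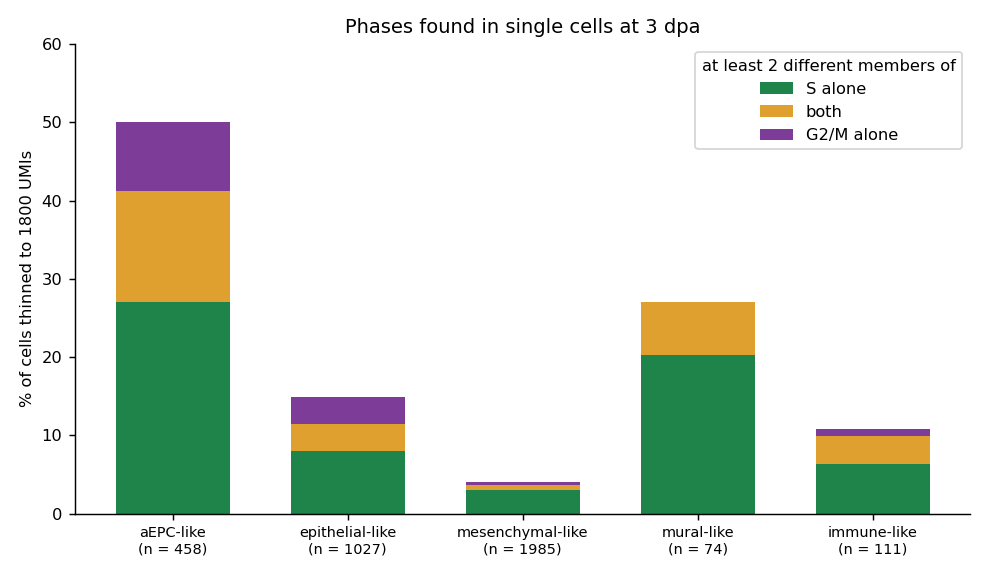
Share of 3 dpa cells, thinned to 1800 UMIs each, that hold at least 2 different S members alone (green), members of both phases (orange) or G2/M members alone (purple), stacked for each class with its number of thinned cells. The 3 parts of the aEPC-like bar are 27.1%, 14.2% and 8.73% of 458 cells, against 3.02%, 0.655% and 0.403% of 1985 mesenchymal-like cells.

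The company that each member kept in single cells divided the S list. Among 3470 thinned 3 dpa cells of the epicardial classes, the share of cells that held at least 2 other G2/M members was between 64.1% (ube2c, 128 cells) and 90.6% (nusap1, 32 cells) where a G2/M member was found, leaving aside bub1, found in 5 cells. For S members it was 39.2% with rrm2, 36.2% with tyms, 33.8% with rrm1, 32.8% with dut, 30.9% with pcna and with rpa2 and 27.3% with fen1. It was 4 of 20 cells with mcm7 and 8 of 40 cells with gins2, 18.8% with slbp, 15.0% with mcm5, 13.3% with mcm3, 12.6% with mcm4, 10.5% with uhrf1, 9.80% with mcm6 and 4.35% with mcm2 (3 of 69 cells). In cells without the member in question the share was 2.81% to 5.70%.

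The S members seen least often with G2/M members were thus mcm2, mcm6 and uhrf1, although the intervals of members found in few cells were wide. Those seen most often were the enzymes of nucleotide supply, but their intervals overlapped those of pcna, rpa2 and fen1. With mcm2, 50.7% of 69 cells held at least 2 other S members, and with rrm2 76.5% of 102 cells did. Pearson correlations across the same cells, with values of log2(UMIs + 1) and the sum of the other G2/M members, were 0.581 for ube2c, 0.551 for kpna2, 0.538 for cdk1 and 0.411 for pcna, and 0.005 for mcm2. They are descriptions over cells of 1 library that share their depth, and in counts this sparse a weak correlation carries little.

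**Figure D5:**
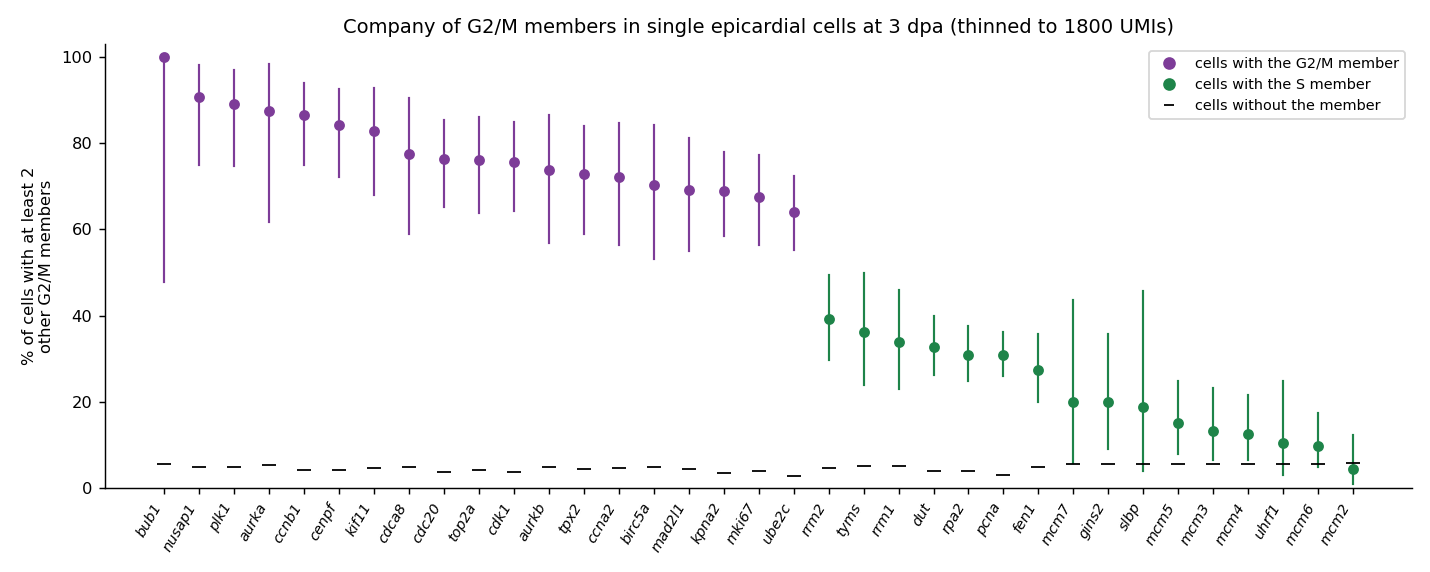
For each member, the share of thinned 3 dpa epicardial cells with that member that also hold at least 2 other G2/M members, in % with exact Clopper-Pearson 95% intervals (purple, G2/M members; green, S members), and the same share of cells without the member (black dashes). All G2/M members lie at 64.1% or above, and S members lie between 4.35% for mcm2 and 39.2% for rrm2.

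Epicardial cells with G2/M members had lower summed levels of the markers of their own class than the other cells of that class. The 178 aEPC-like cells of 3 dpa with at least 5 different G2/M members had levels of 70.1 for the 12 aEPC markers and 144 for the 14 epithelial markers, against 76.5 and 164 in the 282 other aEPC-like cells. podxl, 1 of these 14 epithelial markers, went the other way from their sum, at 2.17 against 1.09. The 87 such epithelial-like cells had 366.5 for epithelial and 42.4 for aEPC markers, against 438 and 27.6 in the other 958, and col11a1a, an aEPC marker, had 1.18 against 0.353. The 20 such mesenchymal-like cells had 96.0 for the 16 mesenchymal and 52.2 for the aEPC markers, against 168 and 26.1 in the other 2087. In epithelial-like and mesenchymal-like cells, aEPC markers were higher where G2/M members were found, by a factor that was not tested. Median depths were 19028 against 13724 UMIs and 31678 against 6777 UMIs. The aEPC markers came in part from the study's own analysis of these samples, in which nearly all proliferating cells fell in its aEPC cluster. The higher aEPC levels are therefore a description only. The leukocyte gene ptprc, 1 of 14 immune markers, had no UMI in any of these 3 groups of cells with G2/M members. The other immune markers are not given here. In the 7 immune-like cells with at least 5 G2/M members it was found with 61 UMIs, beside a level of 109 for epithelial markers against 51.9 in the other 127 immune-like cells, and 3 of the 5 immune-like cells with 10 or more members had high doublet scores. Of mesenchymal-like cells, 3 of 6 with 5 to 9 different G2/M members and 2 of 14 with 10 or more had high doublet scores. Of those with no G2/M UMI, 42 of 1940 did. In epithelial-like cells the same counts were 1 of 31, 1 of 56 and 21 of 752. The part of doublets in the values of these classes was not tested.

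Other genes of the cell cycle were taken as 10 lists by role, with 193 genes. Higher at 3 dpa than at Ctrl were 14 of 15 tested genes of origin licensing, 21 of 26 of the replication fork, 17 of 21 of chromosome structure, 17 of 17 of the centromere and kinetochore, 5 of 6 of the spindle checkpoint, 19 of 23 of the spindle and its motors, 4 of 5 of cytokinesis and 13 of 15 of the mitotic kinases and proteolysis, where 27.0% of all genes tested were higher and 10.9% lower. As with the members, a gene with few UMIs at Ctrl was tested only through its 3 dpa counts, so these counts are descriptions. The median ratios were 5.51, 5.38 and 3.99 for the first 3 of these lists and 19.4, 13.2, 11.4, 43.1 and 11.3 for the lists of mitosis, beside 1.29 over all genes tested. Among the genes with the highest ratios in their lists were spc24 of the Ndc80 kinetochore complex (2, 639 and 6 UMIs at Ctrl, 3 dpa and 7 dpa), smc2 of condensin (4, 851 and 14 UMIs), prc1b of the central spindle (3, 747 and 12 UMIs), and kif23 and racgap1 of the centralspindlin complex (6, 706 and 17, and 3, 263 and 13 UMIs). All 5 reached the minimum only through 3 dpa. foxm1, the transcription factor of many G2/M genes in mammals, had 0, 104 and 0 UMIs, which made it at least 17.4-fold higher at 3 dpa. Not all genes of replication took part, since dhfr (dihydrofolate reductase) had levels of 0.320, 0.144 and 0.0840 and a ratio of 0.450, and orc2 of the origin recognition complex had a ratio of 0.869.

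The lists that act before S phase were mixed. Of 19 tested genes of G1 entry 11 were higher and 4 lower at 3 dpa than at Ctrl, with a median ratio of 2.19, beside the same 27.0% higher and 10.9% lower over all genes. cdk2, the kinase of G1/S, had levels of 0.0125, 0.123 and 0.0140, whereas mycb, a Myc transcription factor, had 22.6, 7.00 and 17.1. Of 23 tested brakes of the cycle, 4 were higher and 8 lower at 3 dpa, against 27.0% and 10.9% of all genes, with a median ratio of 0.657. cdkn1ca, a CDK inhibitor of the p57 family, had 168, 15 and 61 UMIs and a ratio of 0.0447, while cdkn2c, a CDK inhibitor of the INK4 family, had 11, 80 and 37 UMIs and a ratio of 3.64. At 7 dpa against 3 dpa, every tested gene of origin licensing (15), the kinetochore (17) and the spindle checkpoint (6) was lower, and 7 of 23 brakes were higher and 3 lower, where 18.5% of all genes tested were lower and 7.03% higher. Over Ctrl and 7 dpa together, only 8 genes of origin licensing, 3 of the kinetochore and 3 of the spindle checkpoint reached the minimum. At least the others were tested through their 3 dpa counts, so the counts of lower genes in these lists are descriptions only.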

How the data were processed

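The deposited files hold raw UMI counts per gene and droplet, which the authors made with Cell Ranger 3.0.2 on zebrafish genome GRCz10 (from the submitters' processing notes), without normalization and before their filters on cells. As in the study, a droplet was kept if it had more than 316 genes and no more than 5% of its counts from mitochondrial genes (15627 of the 3 libraries, with 25681344, 51259397 and 44881541 UMIs at Ctrl, 3 dpa and 7 dpa). Levels are UMIs per 10000 UMIs with exact Poisson intervals, ratios have exact conditional intervals and shares Clopper-Pearson intervals, all at 95%. Code for these was tested on simulated data. A count of 0 was set to 3 counts for bounds and medians. No gene coordinates or sequences were used here.

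Counts of 13707 genes were normalized with SCTransform (Seurat 5.3.0, sctransform 0.4.2, R 4.3.3), in which the library was a batch term. Of the 3000 most variable genes, the 56 on the lists of cell cycle genes were left out. From the rest, 20 principal components and a graph of 20 neighbours gave Louvain clusters at resolution 0.3. A cluster took the name of the marker list of which the largest part was raised at least 1.5-fold in at least 10% of its cells, with at least 3 markers raised and either 50% of the list raised or 1 marker among its 10 leading genes. This naming rule was set after the clusters had been seen, and the members, lists and markers were chosen with earlier results of these data known. Scrublet (scanpy 1.11.5) called 2 doublets, too few to have worked, so none were removed; an alternative left out the highest scores at 0.8% per 1000 droplets. All 35 members are named in the text, and of each other list at most the 2 genes with the highest and the 1 with the lowest ratio of 3 dpa to Ctrl among genes with at least 50 UMIs. A gene named by this rule is not reported here. Genes on no list were named if they were among the 10 with the highest correlation with the G2/M sum and found in at least 2% of cells. 12 symbols of the other lists were not matched in the files and were not analysed here. Alternatives changed the depth of thinning, the number of members asked of a cell, the threshold and minimum, the clustering, the doublets and single genes or cells left out.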

Additional observations from a re-analysis of the deposited data

Results flagged for a closer look

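The G2/M level at 7 dpa relative to Ctrl went in opposite directions in the epicardial classes, at 2.40 (1.51–4.01) in epithelial-like cells, from 206 and 20 UMIs, and at 0.595 (0.447–0.790) in mesenchymal-like cells, from 92 and 114 UMIs. The difference was not tested, since each condition has 1 library. Without the cells that held at least 10 different G2/M members, 2 epithelial-like cells at 7 dpa and 1 mesenchymal-like cell at Ctrl, both directions turned, to 0.921 (0.558–1.59) and 1.58 (1.09–2.32).

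Droplets that the limits on genes and mitochondrial transcripts removed, and which enter no comparison above, also held cell cycle transcripts. The 485 droplets removed at 3 dpa (median 1162 UMIs, median mitochondrial share 24.5%) had a G2/M level of 3.41 (428 UMIs) and an S level of 3.76 (472 UMIs), against 4.04 and 5.66 in the cells kept. In the 378 droplets removed at 7 dpa these levels were 0.213 (17 UMIs) and 0.439, and in the 186 removed at Ctrl they were 0.0243 (1 UMI) and 0.852 (35 UMIs).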

How the results depend on the processing

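No paired analysis was possible because each condition has 1 library. Of 158 alternatives, 74 left the value within its counting interval or, for counts of members, within 1.5 times, 82 moved it further and 2 turned a direction; 6 were added after seeing the data, and 4 could not be run, the ratios of aEPC-like cells at resolution 0.2, where no such cluster was found. No ratio of 3 dpa to Ctrl or of 7 dpa to 3 dpa, and none between classes, changed its side of 1. The promoter motifs that had been planned were not run, since no sequences were used.

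The size of the ratios between libraries moved with thinning, with how cells were weighed, and with single cells or pcna left out. For G2/M, 3 dpa over Ctrl (61.8) was 32.5 with means over cells, 42.4 thinned and 105 without the cell richest in G2/M UMIs of each library. For 7 dpa over 3 dpa (0.0266) it was 0.0432, 0.0465 and 0.0201 in these settings, and for 7 dpa over Ctrl (1.64) 1.97 thinned, 2.11 without the richest cells and 1.19 (0.932–1.54) without cells with at least 10 different G2/M members. In S, the ratios were 2.95 with means over cells, 6.99 without pcna and 3.28 thinned for 3 dpa over Ctrl (5.65), 0.249, 0.123 and 0.239 for 7 dpa over 3 dpa (0.130), and 0.857 without pcna and 0.785 thinned for 7 dpa over Ctrl (0.734). The ratios of 7 dpa to Ctrl that turned were 0.921 in epithelial-like and 1.58 in mesenchymal-like cells without cells with at least 10 G2/M members. The cause was not tested.

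Shares of cells moved with depth and with the number of members asked. For G2/M the Ctrl share (0.0433%) was 0.433% with 1 member and 0.177% unthinned, the 3 dpa share (5.60%) was 9.74% with 1 member, 3.95% with 3, 3.44% at 900 UMIs, 8.07% at 3600 and 13.1% unthinned, and the 7 dpa share (0.0970%) was 0.776% with 1 member and 0.211% unthinned. For S they were, in the order 1 member, 3 members, 900 UMIs, 3600 UMIs and unthinned, 14.5%, 0.325%, 0.575%, 3.94% and 6.28% at Ctrl (1.28%), 23.7%, 6.63%, 6.05%, 18.5% and 27.6% at 3 dpa (11.1%), and 10.7%, 0.501%, 0.472%, 2.48% and 5.09% at 7 dpa (1.13%).

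Ratios between classes at 3 dpa moved with the clustering. For G2/M, aEPC-like over epithelial-like cells (2.69) was 3.24 with cell cycle genes kept, 1.96 at resolution 0.5, 3.63 with log-normalized values, 2.11 with 30 components, 2.80 without ube2c and 2.83 thinned. aEPC-like over mesenchymal-like cells (11.9) was 48.0, 10.1 and 130 in the first 3 of these, 12.7 without the highest doublet scores and 19.01 thinned. Epithelial-like over mesenchymal-like cells (4.43) was 14.8 with cell cycle genes kept, 7.47 at resolution 0.2, 5.14 at 0.5, 35.7 with log-normalized values, 5.44 with 30 components, 4.77 without high doublet scores and 6.71 thinned. For S, the same ratios were 3.27, 2.36, 4.68, 2.46 and 3.14 (cell cycle genes kept, resolution 0.5, log-normalized, 30 components, thinned) beside 2.89; 7.05, 4.97, 17.4, 6.37 and 7.59 (kept, resolution 0.5, log-normalized, doublet scores, thinned) beside 5.70; and 2.16, 3.79, 2.11, 3.72, 2.33, 2.22, 2.06 and 2.42 (kept, resolution 0.2, 0.5, log-normalized, 30 components, doublet scores, without pcna, thinned) beside 1.97.

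The count of members past the threshold at 7 dpa against Ctrl was 1, and 6 (3 higher, 3 lower) at 1.5-fold, 0 at 3-fold, 6 with a minimum of 20 UMIs, 0 with 200 and 2 in the epicardial classes alone. Depth limited what could be said of bub1 and of the G2/M members at Ctrl, where all 19 together had 168 UMIs.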

Other observations

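Of the genes on none of the cell cycle lists, 10 were named for the likeness of their pattern to the G2/M sum across the 3470 thinned 3 dpa cells of the epicardial classes. Their Pearson correlations, which describe cells of 1 library that share its depth, were 0.454 for si:ch211-69g19.2, 0.449 for zgc:194627, 0.414 for si:ch73-281n10.2, 0.403 for h3f3a (histone H3.3), 0.395 for tuba1b (an alpha-tubulin), 0.376 for tp53inp2, 0.366 for hmga1a (a chromatin protein of the HMGA family), 0.333 for si:dkey-30c15.10, 0.311 for CKS2 and 0.303 for actb1 (beta-actin). For comparison, the members ube2c and pcna had 0.581 and 0.411 with the sum of the other G2/M members. CKS2 is the symbol of a small subunit of cyclin-dependent kinases that had not been placed on a list.

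All 10 were also highest at 3 dpa, which is a description only, since they were picked in 3 dpa cells. Over all genes tested, the median ratio was 1.29 for 3 dpa to Ctrl and 0.867 for 7 dpa to 3 dpa. The share of all genes that were highest at 3 dpa was not taken. zgc:194627 had levels of 0.00584 at Ctrl, 0.334 at 3 dpa and 0.0218 at 7 dpa (57.2-fold, 34.6–102, at 3 dpa relative to Ctrl), and tp53inp2 had 0.0148, 0.509 and 0.0455. h3f3a, hmga1a and tuba1b were found throughout, with levels of 0.869, 2.37 and 1.01 for h3f3a, 0.550, 1.44 and 0.388 for hmga1a and 1.13, 2.92 and 0.705 for tuba1b. actb1 had 20.2, 24.5 and 9.77, a ratio of 3 dpa to Ctrl of only 1.21.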
